A study of Rattus norvegicus with 241 samples.

Results

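The NRF2 oxidative stress genes were followed through bulk RNA-seq of sorted mammary cells and single-cell RNA-seq of sorted and whole rat mammary glands. The set held 8 genes that are targets of the transcription factor NRF2: AKR1B8, HMOX1, NQO1, SLC7A11, GCLM, GCLC, TXNRD1 and SRXN1. They are 8 of the 21707 genes in all tables, of which 16820 were in the bulk tables and 18566 in the single-cell tables, matched by symbol without regard to case. All 8 were in every bulk table, whereas SRXN1 was not in the single-cell tables, which left 7 genes there. The set was selected on measured values, the differences of TGFBRi minus vehicle in young rats at day 0 after the last dose, for a change that cell types of the whole gland shared and for the opposite direction in sorted cells. The day 0 comparisons of TGFBRi with vehicle in young rats therefore served to choose the genes, and their values are given as a description without a test. The values of the set in later vehicle rats against those of day 0 rest on the same day 0 vehicle samples and are a description as well. The other comparisons below were tested.

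Rats were dosed by mouth 2 times a day with 75 mg/kg of TGFBRi (LY2157299, galunisertib, an inhibitor of the kinase of the TGFβ type I receptor) or with the carboxymethylcellulose vehicle. Young virgin female ACI rats, an inbred strain, started at 35 days of age and young SD (Sprague Dawley, outbred) rats at 24 days, and both were dosed for 10 days. Basal, luminal and CD45+ cells of ACI rats were sorted from 3 rats per group at each of 3 times, which were day 0, 7 and 14 from the end of dosing, and those of SD rats from 4 rats per group on day 0. Single cells were taken on day 0 from basal and luminal sorts of 3 vehicle and 3 TGFBRi-treated ACI rats and of 3 vehicle and 6 TGFBRi-treated SD rats, and from whole glands of 3 vehicle and 6 TGFBRi-treated SD rats. Adult virgin and parous ACI rats of 18 to 24 weeks were dosed for 10 days and sampled on day 0 (4 rats per group, but 2 vehicle parous and 3 TGFBRi-treated virgin rats for CD45+ cells). In the NMU experiment, dosing of SD rats began at 21 days of age and lasted 10 days, and they received 50 mg/kg of the carcinogen N-nitroso-N-methylurea (NMU) and were sampled on day 87 (3 tumor-bearing vehicle, 3 tumor-bearing TGFBRi-treated and 3 tumor-free TGFBRi-treated rats), with EPCAM+ and CD45+ cells of tumors from 3 vehicle and 3 TGFBRi-treated rats. In the E2 experiment, dosing of ACI rats began at 38 days of age and lasted 21 days, and they received an implant with 37 mg of estradiol (E2) or without E2, and luminal and CD45+ cells came from 2 to 4 rats per group.

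NRF2, encoded by NFE2L2, is held low by KEAP1, which marks it for degradation until oxidants or electrophiles modify KEAP1. NRF2 then binds antioxidant response elements in the DNA and turns on genes that make glutathione, feed the thioredoxin system, reduce quinones and aldehydes and break down heme. BACH1 is a heme-sensitive repressor of many of the same elements and is known best for holding HMOX1 down. HMOX1 is also well known in macrophages, which recycle the iron of heme.

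The promoters are shown because the elements that NRF2 binds lie in DNA near such genes. RefSeq promoter windows of 300 bases (250 before and 50 after the start, build GRCr8) were found for 7 of the 8 genes. The core of the antioxidant response element, TGACNNNGC on either strand, was searched in them. It was present in windows of 2 of these 7 genes, GCLM and the second TXNRD1 entry, against 13.1% of all 27457 genes with a window and 14 of 37 genes of the wider list of NRF2 targets described below. The 250 bases before the start are printed with the matching letters in capitals, 5′ to 3′ on the strand of the gene (GCLM, chr2:213031885-213032134, plus strand, and TXNRD1, chr7:22755905-22756154, minus strand). The match began at position -172 from the start in GCLM and at -78 in TXNRD1, and in both it read on the opposite strand.
GCLM: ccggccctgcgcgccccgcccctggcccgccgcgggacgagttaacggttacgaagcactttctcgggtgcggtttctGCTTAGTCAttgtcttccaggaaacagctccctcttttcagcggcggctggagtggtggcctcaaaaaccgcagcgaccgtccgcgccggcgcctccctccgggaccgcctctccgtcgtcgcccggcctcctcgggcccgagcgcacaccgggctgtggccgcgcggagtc
TXNRD1: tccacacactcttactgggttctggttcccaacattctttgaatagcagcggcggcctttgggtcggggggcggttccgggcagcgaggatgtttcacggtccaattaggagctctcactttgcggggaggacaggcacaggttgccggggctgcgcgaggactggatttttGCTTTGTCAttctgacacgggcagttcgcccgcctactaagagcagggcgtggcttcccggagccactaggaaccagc

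Reads on genes per bulk sample ran from 4194912 to 52314784. The single-cell tables held 16762 cells of sorted ACI glands, 39766 of sorted SD glands and 103524 of whole SD glands, and the median UMI count per cell of a library was 4251 to 15941 in sorted cells and 2820 to 3885 in whole glands. Bulk values are reads divided by a size factor per sample, called normalized values, and single-cell values are UMIs summed per rat and cell class and given as CPM, scaled to the same total in every rat and class. The lists of cell type markers held 8 basal, 9 fibroblast, 8 macrophage and 7 T cell genes, of which at most 2 were at 0 in every sample of a group named below, and CPM of such a list is its sum. Log2 differences are on the log2(value + 1) scale, except where edgeR was used. Between single-cell sorts and between tumors and glands they are log2 fold changes of edgeR. The ± there is the absolute log2 fold change divided by the square root of the F statistic. AKR1B8 belongs to a family of close paralogs, so reads could be split between copies.

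In whole SD glands every one of the 7 genes lay lower in TGFBRi-treated than in vehicle rats in each of 12 cell classes, which held 94099 cells or 90.9% of all. Classes were named from marker genes in clusters made without the NRF2 genes, and the text calls them basal-like, endothelial-like and so on. In 64 of the 84 pairs of class and gene every vehicle rat lay above every TGFBRi-treated rat, and in 20 the groups overlapped. Over all genes tested in the same way, the share with every vehicle rat above every treated rat was 6.22% in all cells together and ran from 1.78% in macrophage-like to 18.6% in basal-like cells. The median log2 difference of the 7 genes was -1.77 over all cells of a rat, -2.4 in basal-like, -1.88 in luminal progenitor-like, -1.71 in mature luminal-like, -2.65 in endothelial-like, -2.84 in lymphatic endothelial-like, -2.74 in vascular smooth muscle or pericyte-like, -2.18 in fibroblast-like, -2.24 in Schwann-like, -1.92 in macrophage-like, -2.15 in NK cell-like, -1.28 in B cell-like and -0.9 in T cell-like cells.

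**Figure D1:**
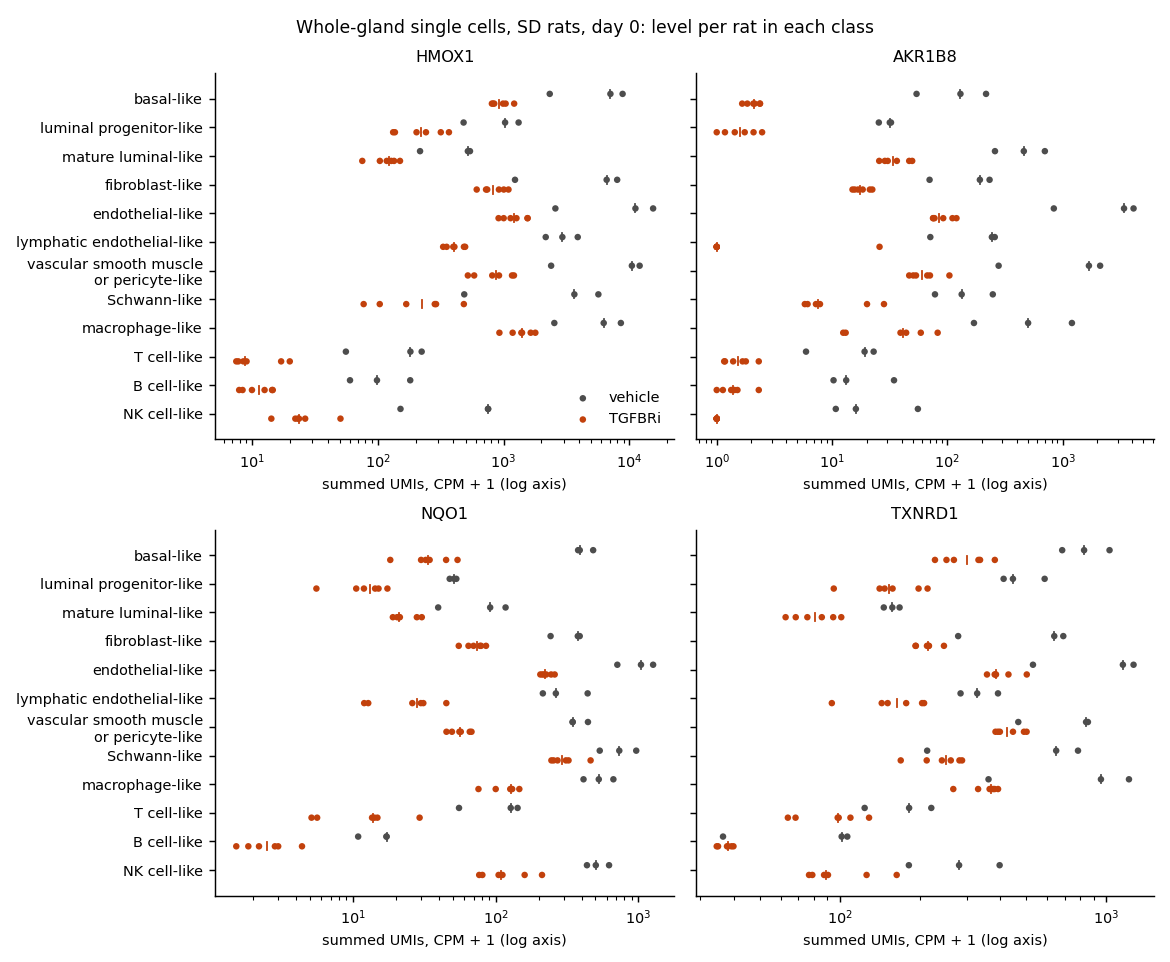
Levels of HMOX1, AKR1B8, NQO1 and TXNRD1 in 12 cell classes of whole SD glands at day 0. The horizontal log axis gives UMIs summed per rat and class as CPM + 1, grey points are the 3 vehicle rats, orange points the 6 TGFBRi-treated rats and ticks the group medians. HMOX1, AKR1B8 and NQO1 have every vehicle point to the right of every TGFBRi point in all 12 classes, and TXNRD1 in 7 of them.

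Glutathione genes came first in the order of roles. GCLC, the catalytic subunit of the enzyme that limits glutathione synthesis, was at 110, 91.7 and 94.6 CPM in basal-like cells of the vehicle rats and at 19.5 to 38.6 CPM (median 26.6) in the TGFBRi-treated rats. That log2 difference was -1.85 ± 0.15 (SE), and the groups did not overlap. GCLC was also apart in fibroblast-like cells (131, 122 and 66.5 CPM in vehicle rats and 21.9 to 42.3 CPM, median 29.3, in treated rats), and its groups were apart in 7 of 12 classes. In luminal progenitor-like cells it overlapped, with 42.5, 41 and 37.9 CPM against 18.8 to 46.4 CPM. GCLM, the regulatory subunit of that enzyme, was at 136, 94.2 and 69 CPM in vehicle basal-like cells and at 13.7 to 19.8 CPM (median 18.1) in treated ones, a log2 difference of -2.40 ± 0.29. In endothelial-like cells it stood at 401, 279 and 78.1 CPM against 17.3 to 28.5 CPM, the lowest log2 difference of GCLM over the 12 classes at -3.02 ± 0.72.

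SLC7A11, the cystine importer that supplies glutathione synthesis, was at 413, 444 and 209 CPM in vehicle basal-like cells and at 90.7 to 137 CPM (median 121) in treated ones. Luminal progenitor-like cells held far less of it, 29.6, 28.8 and 25.7 CPM in vehicle and 4.4 to 8.87 CPM in treated rats, with a log2 difference of -1.88 ± 0.13. Its vehicle rats differed widely in fibroblast-like cells, where values of 121, 136 and 9.03 CPM overlapped the 7.01 to 13.9 CPM of treated rats. The low value there belonged to the vehicle rat numbered 4, which was the lowest vehicle rat for most genes and classes.

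TXNRD1, the reductase that regenerates thioredoxin, had the narrowest range of differences. It stood at 1032, 828 and 685 CPM in vehicle basal-like cells and at 227 to 382 CPM (median 299.6) in treated ones. In luminal progenitor-like cells it was at 588, 447 and 412 CPM against 94.1 to 213 CPM, and in mature luminal-like cells at 146, 167 and 157 CPM against 61.7 to 100.4 CPM. Its log2 difference ran from -1.63 to -0.68 over the 12 classes, and in macrophage-like cells its groups overlapped because of the vehicle rat at 362 CPM.

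NQO1, a reductase of quinones, was apart in all 12 classes. It stood at 388, 482 and 378 CPM in vehicle basal-like cells and at 17.3 to 53.1 CPM (median 32.4) in treated ones, a log2 difference of -3.62 ± 0.25. In endothelial-like cells it was at 1269, 1043 and 712 CPM against 205 to 258 CPM, and in vascular smooth muscle or pericyte-like cells at 345, 346 and 443 CPM against 44.2 to 66.8 CPM. The vehicle rat numbered 4 was the highest of its group for NQO1 in the latter class, unlike for most other genes.

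AKR1B8, an aldehyde reductase, had a log2 difference of -3.01 or below in every class. In endothelial-like cells it was at 4109, 3397 and 836 CPM in vehicle rats and at 74 to 119 CPM (median 83.6) in treated rats, a log2 difference of -4.65 ± 0.73. In basal-like cells it was at 129, 215 and 53 CPM against 0.662 to 1.37 CPM (-5.80 ± 0.59), and in luminal progenitor-like cells at 30.7, 31.4 and 24.4 CPM against 0 to 1.47 CPM. Mature luminal-like cells held more of it than the other epithelial classes, 257, 699 and 459 CPM in vehicle and 24.6 to 48.5 CPM in treated rats. In NK cell-like cells it was at 9.77, 54.5 and 15.1 CPM in vehicle rats and at 0 in all 6 treated rats.

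HMOX1, the heme oxygenase that breaks down heme, was apart in all 12 classes as well. It stood at 8832, 7068 and 2328 CPM in vehicle basal-like cells and at 807 to 1214 CPM (median 916) in treated ones, a log2 difference of -2.48 ± 0.60. In endothelial-like cells it was at 15439, 11172 and 2581 CPM against 912 to 1553 CPM, in fibroblast-like cells at 7997, 6598 and 1233 CPM against 611 to 1094 CPM, and in macrophage-like cells at 6250, 8559 and 2532 CPM against 926 to 1789 CPM. The gap was narrow in Schwann-like cells, where the lowest vehicle rat was at 486 CPM and the highest treated rat at 483 CPM. B cell-like and T cell-like cells held the least, 97.7, 180.4 and 59.3 CPM and 181, 223 and 54.9 CPM in vehicle rats. Free RNA can give UMIs of a gene to cells that do not express it, and its part in the values of these genes was not tested in any class.

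Among the regulators, NFE2L2 was at 342, 304 and 285 CPM over all cells of the vehicle rats and at 269 to 306 CPM in treated rats, so the groups overlapped with a log2 difference of -0.12 ± 0.08. KEAP1 lay lower in treated basal-like cells (45.9, 48.8 and 52.4 CPM against 13.6 to 23.4 CPM, -1.52 ± 0.12) and in endothelial-like cells (75.6, 70.6 and 37.5 CPM against 19.7 to 27.3 CPM), but higher in B cell-like cells (25, 23.7 and 11.6 CPM against 27 to 41.1 CPM). BACH1 was at 82.9, 85.8 and 50.5 CPM over all cells of vehicle rats and at 35.4 to 42.6 CPM in treated rats.

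Other lists of stress genes were set beside the 7. Over all cells of a rat and on the scale of edgeR, 9 of 42 genes of a wider list of NRF2 targets and regulators lay above 0 with a median of -0.52, against 0.01 over all genes. Of 12 genes of the response to ATF4, the factor of amino acid and endoplasmic reticulum stress, 1 lay above 0 (median -0.63), and of 11 immediate early and heat shock genes that tissue dissociation is known to raise 5 did, with a median of 0.00. In basal-like cells the wider NRF2 list had a median of -0.44, while the ATF4 list was at 0.42 and the dissociation list at 0.83. As sums per rat over the 12 classes, the wider NRF2 list was lower without overlap in treated rats in 10 classes and overlapped in luminal progenitor-like cells (22097 to 40982 CPM in treated and 23431 to 26043 CPM in vehicle rats) and mature luminal-like cells (9517 to 15884 and 10438 to 16908 CPM). The ATF4 list was lower without overlap in 3 classes, luminal progenitor-like (2343 to 3499 against 5063 to 7284 CPM), B cell-like and T cell-like cells, and overlapped in 9. The dissociation list was higher without overlap in 2 classes, lymphatic endothelial-like (10765 to 17294 against 7988 to 10025 CPM) and Schwann-like cells (13586 to 17725 against 10061 to 11868 CPM), and overlapped in 10, and over all cells together it was at 8205 to 11249 CPM in treated and 8723 to 9997 CPM in vehicle rats.

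The cluster with most cells of a class was the same in both groups, except that 4299 of the vehicle B cell-like cells lay in cluster 5 and 10236 of the treated ones in cluster 0. Luminal progenitor-like cells included a low-UMI cluster with 984 vehicle and 3277 treated cells. The smallest classes had 390 vehicle and 390 treated lymphatic endothelial-like cells and 334 and 735 NK cell-like cells. Library pairs of whole glands shared 1.11 to 2.51% of cell barcodes, against at most 0.516% in the sorted libraries. Scaling each library by TMM in place of its total UMIs moved the log2 ratio of treated to vehicle CPM of every gene of a class by -0.24 to 0.06, and all 7 genes stayed below 0 in every class.

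Sorted epithelial cells of young rats at the same day did not show this shared lower level. In the basal sort of ACI rats, single-cell HMOX1 was at 201, 288 and 92.1 CPM in vehicle rats and at 1099, 346 and 1152 CPM in TGFBRi-treated rats, a log2 difference of 2.11 ± 0.74 with no overlap. TXNRD1 was at 231, 246 and 231 CPM against 466, 275 and 493 CPM (0.75 ± 0.27), again without overlap. SLC7A11, at 100.9, 94.5 and 60.3 CPM against 206, 90.2 and 199 CPM, and NQO1, at 3.17, 4.29 and 1.71 CPM against 5.97, 2.89 and 5.23 CPM, overlapped through the treated rat that was also lowest for HMOX1 and TXNRD1. GCLC and GCLM differed by -0.03 and 0.10, and AKR1B8 was at 0.116 to 0.386 CPM in both groups. So 2 of 7 genes had every treated rat above every vehicle rat, where the share over all genes was 9.18%, and 37.4% of all genes had every vehicle rat above every treated rat.

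KEAP1 was at 26.8, 30.2 and 28.3 CPM in the vehicle ACI basal sort and at 18.1, 21.2 and 15 CPM in the treated one, lower without overlap as were 37.4% of all genes, and NFE2L2 differed by 0.05. In the ACI luminal sort, GCLM was at 37, 33.3 and 42.5 CPM against 30.3, 30.2 and 29 CPM and NFE2L2 at 119, 97.5 and 117 CPM against 89.8, 86.6 and 71.7 CPM, both lower in treated rats without overlap. GCLM was 1 of 7 genes of the set apart in this sort, where 36.5% of all genes had every vehicle rat above every treated rat. HMOX1 there overlapped, at 35.6, 53.1 and 20.4 CPM against 74.2, 35.8 and 64.6 CPM. In mature luminal-like cells of the ACI luminal sort, GCLC was at 24.5, 23.8 and 24.3 CPM against 18, 14.2 and 16.9 CPM. It was 1 of 7 genes apart in that class, where 31.9% of all genes were apart in the same direction.

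In sorted SD single cells all 7 genes overlapped between the groups in the basal sort, the luminal sort and both luminal classes. Over all genes, every vehicle rat lay above every treated rat for 24.2% in the basal and 24.8% in the luminal sort. That share was 25.3% in luminal progenitor-like and 21.7% in mature luminal-like cells. Every treated rat lay above every vehicle rat for 2.53%, 3.91%, 2.78% and 4.31%, in the same order. HMOX1 in the basal sort was at 662, 436 and 419 CPM in vehicle rats and at 322 to 4252 CPM (median 897) in treated rats. The highest value came from rat SD14, and the other treated rats reached at most 1094 CPM. SLC7A11 was at 184, 144 and 131 CPM in vehicle basal sorts and at 48.5 to 319 CPM (median 79.2) in treated ones, a log2 difference of -0.59. BACH1 was apart in the basal sort, at 47.4, 40.4 and 53.8 CPM in vehicle and 5.98 to 36.5 CPM in treated rats (-1.61 ± 0.43), as were 24.2% of all genes in that direction. Treated and vehicle cells lay mostly in different clusters in the ACI basal sort and in the SD sorts, but not in the ACI luminal sort. There clusters 0, 1 and 7 held 1488, 1081 and 389 vehicle and 2014, 1316 and 506 treated cells. In the ACI basal sort, clusters 2, 4 and 6 held 2063, 1708 and 1445 vehicle but 94, 62 and 27 treated cells, and clusters 3, 5 and 8 held 112, 70 and 33 vehicle but 1699, 1577 and 812 treated cells. In the SD basal sort, cluster 6 held 2864 vehicle and 132 treated cells, and clusters 0, 4 and 5 held 18, 269 and 1 vehicle but 4381, 3391 and 3460 treated cells. The largest library made up 59.55% of cluster 6 and 55.54%, 47.57% and 97.98% of clusters 0, 4 and 5, so the split also followed single rats. The largest clusters of SD luminal progenitor-like cells were cluster 1 with 4064 vehicle cells and cluster 2 with 3685 treated cells, and those of SD mature luminal-like cells were cluster 9 with 1307 vehicle cells and cluster 3 with 3725 treated cells. The mature luminal-like split was incomplete. Cluster 9 also held 956 treated cells, and cluster 11 held 330 vehicle and 1356 treated cells. The largest library made up 49.43% and 60.62% of clusters 1 and 2 and 34.07% and 25.63% of clusters 9 and 3. The paper also describes clustering by animal in sorted SD cells.

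The wider NRF2 list and the dissociation list moved in the sorts as well, and these values are a description. Sums of the ATF4 list overlapped in all 4 sorts. In ACI rats they were at 3924 to 4625 CPM in treated and 3773 to 4760 CPM in vehicle basal sorts and 3576 to 4687 against 4494 to 6365 CPM in luminal sorts. In SD rats they were at 3436 to 6010 against 4052 to 4643 CPM (basal) and 2199 to 3449 against 3040 to 3391 CPM (luminal). The wider NRF2 list lay higher without overlap in treated rats of all 4 sorts, with sums of 9810 to 11638 CPM against 7347 to 8370 CPM in the ACI basal sort, 22207 to 24640 against 13165 to 18831 CPM in the ACI luminal sort, 9886 to 15218 against 7944 to 8719 CPM in the SD basal sort and 24444 to 31964 against 18351 to 22275 CPM in the SD luminal sort. On the scale of edgeR 33 of 42 genes of the wider list in the ACI basal sort, 28 of 40 in the ACI luminal, 35 of 42 in the SD basal and 33 of 43 in the SD luminal sort lay above 0, with medians of 0.26, 0.33, 0.64 and 0.63, against -0.03, -0.01, 0.07 and 0.08 over all genes. Over all cells of whole glands the same list summed to 13801 to 18764 CPM in treated and 19288 to 22424 CPM in vehicle rats, lower in treated rats without overlap, although its sums overlapped in both luminal classes there. The dissociation list lay lower without overlap in treated rats of 3 sorts, at 16709 to 18120 against 24691 to 32871 CPM in the ACI basal, 28562 to 28769 against 36996 to 51784 CPM in the ACI luminal and 6917 to 13957 against 14715 to 15516 CPM in the SD basal sort, and it overlapped in the SD luminal sort. The part of dissociation in the values of the 7 genes was not tested.

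Scaling with TMM in place of library totals moved every gene up by 0.22 to 0.39 in the sorted classes and by -0.24 to 0.06 in the classes of whole glands, where all 7 genes lay below 0 in every class under both scalings. The shift was 0.23 in the ACI basal sort and 0.39 in the SD basal sort. The number of the 7 genes above 0 was then 7 in place of 5 in the ACI basal sort and 5 under both scalings in the SD basal sort, and HMOX1 in the ACI basal sort was at 2.34 in place of 2.11. In the luminal sorts 5 in place of 4 genes (ACI) and 4 in place of 3 (SD) lay above 0.

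Levels also differed between the preparations within SD rats. AKR1B8 was at 0.44 to 0.507 CPM in the basal sort of vehicle rats, at 53 to 215 CPM in basal-like cells of whole vehicle glands and at 0.662 to 1.37 CPM in those of treated glands. Sorted and whole-gland cells differed in animals, cell sorting, the authors' keratin and Ptprc filters, the 10x kit (3′ v3 and 5′ HT v2) and the Cell Ranger version, and the share of each in these differences cannot be told apart.

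**Figure D2:**
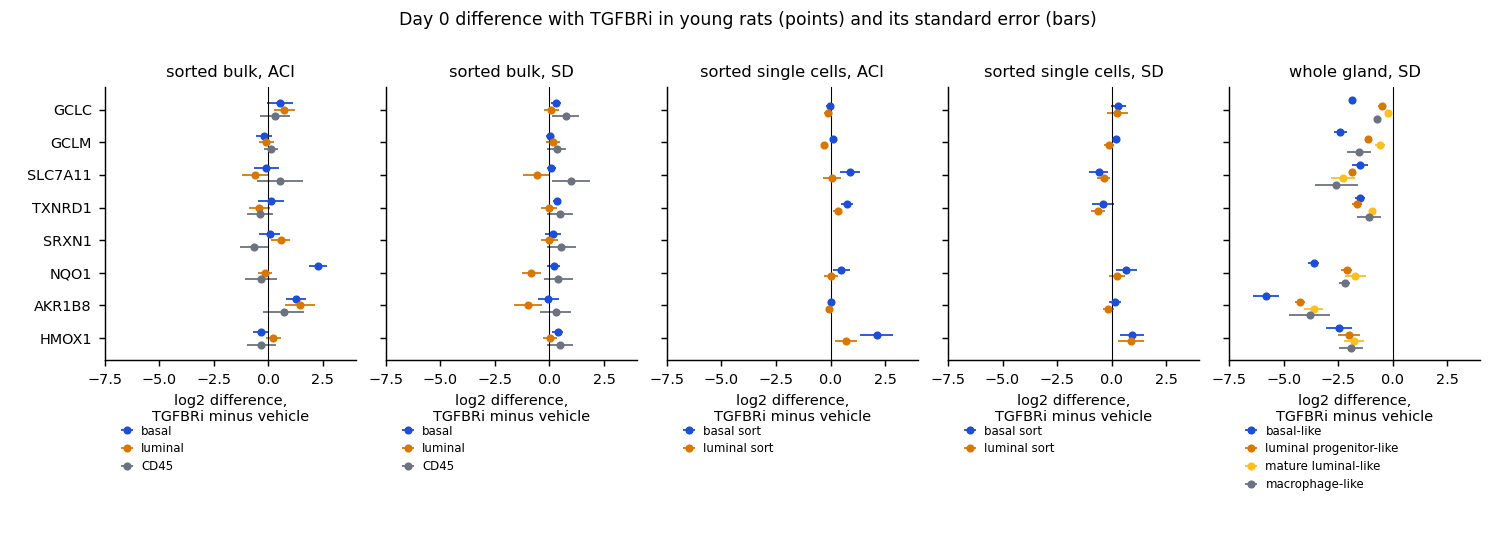
Log2 differences of TGFBRi minus vehicle at day 0 in young rats, with 1 panel for each data set (sorted bulk ACI, sorted bulk SD, sorted single cells ACI, sorted single cells SD and whole-gland SD). Points are the differences on the log2(value + 1) scale and bars their SE, for each cell fraction or class, and SRXN1 has no point in single cells. All whole-gland points lie below 0, those of sorted cells lie on both sides of it, and HMOX1 in the ACI basal sort reaches 2.11.

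Bulk RNA-seq of sorted cells at day 0 gave differences on both sides of 0. In ACI basal cells NQO1 was at 237, 253 and 301 normalized units in vehicle rats and at 691, 1906 and 1524 in treated rats, a log2 difference of 2.26 ± 0.41. AKR1B8 was at 43.7, 32.6 and 52 against 60.4, 153 and 115 (1.26 ± 0.46), and both genes were apart without overlap. GCLC was also higher in every treated sample, at 1737, 1717 and 1618 against 2106, 2659 and 2551 (0.52 ± 0.60). HMOX1 overlapped, at 29738, 29470 and 22103 against 15327, 28867 and 22118, and SLC7A11, GCLM, TXNRD1 and SRXN1 differed by -0.19 to 0.12. The median over all genes tested was 0.30 and that of the 8 genes 0.09. How many of all genes were apart without overlap was not counted in bulk samples. These separations and those of bulk samples below therefore have no background share.

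The wider list in ACI basal cells had 18 of 46 genes above 0 with a median of -0.12, the ATF4 list 2 of 12 above 0 with a median of -0.75, and the dissociation list 11 of 13 with 0.41. Markers of other cells moved with the treatment in these samples. Basal markers summed to 10264 to 14087 CPM in vehicle and 3299 to 7588 CPM in treated ACI basal samples, macrophage markers to 12.2 to 21.5 and 96.8 to 126 CPM, and fibroblast markers to 3498 to 8938 and 2690 to 33077 CPM. Their part in the NQO1 and AKR1B8 values was not tested. In bulk samples, fewer cells of a type and less RNA per cell cannot be told apart.

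ACI luminal cells showed AKR1B8 at 9.4, 2.19 and 10.8 in vehicle and 21.3, 21.7 and 14.4 in treated samples and GCLC at 978, 1019 and 792 against 1482, 1382 and 1782, both higher without overlap. The share of all genes apart in this way was not counted here either. TXNRD1 overlapped, at 4846, 4092 and 3533 against 2388, 3450 and 3643 (-0.41). In ACI CD45+ cells HMOX1 spread over 26259, 189616 and 82798 in vehicle and 49920, 37147 and 111611 in treated samples, which overlapped. Beside these values, fibroblast markers summed to 12680 to 32363 CPM in vehicle and 996 to 7296 CPM in treated samples.

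In SD rats HMOX1 in basal cells was at 9543, 14247, 7509 and 8460 in vehicle and 9799, 19686, 11552 and 10943 in treated samples (0.37 ± 0.25). In luminal cells NQO1 was at 324, 371, 326 and 222 against 228, 344, 96.8 and 110 (-0.84 ± 0.44) and AKR1B8 at 76.5, 193, 66.6 and 66 against 74.5, 68.6, 71.3 and 10.8. In CD45+ cells all 8 genes lay above 0, by 0.30 to 0.99 with SE of 0.44 to 0.87. Without vehicle replicate 4, however, the differences ran from -0.45 to 0.66 and 5 of the 8 lay below 0.

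The next question was in which epithelial lineage these genes are active without treatment. The lineage did not enter the choice of the genes, but the day 0 vehicle samples did, in bulk and in single cells, so the day 0 tests of the set are not independent of the choice. The samples of day 7 and day 14 are not part of those day 0 differences. Earlier results of these data were known when the genes were chosen, however, so full independence cannot be claimed for them either. SLC7A11 and HMOX1 were higher in basal than in luminal cells of vehicle ACI rats on day 7 and day 14, and also in the day 0 samples of both strains, bulk and single-cell. In ACI rats at day 0, SLC7A11 was at 1479, 771 and 1468 in basal and 191, 110 and 201 in luminal samples, a log2 difference of 2.87 ± 0.59 (limma, adjusted p = 0.00054). At day 7 the difference was 3.56 ± 0.59 (limma, adjusted p = 4.76e-05) and at day 14 it was 4.22 ± 0.59 (limma, adjusted p = 3.42e-06). HMOX1 was at 29738, 29470 and 22103 in basal and 7456, 7835 and 7852 in luminal samples at day 0, a difference of 1.80 ± 0.35 (limma, adjusted p = 0.000285), followed by 1.62 at day 7 (limma, adjusted p = 0.00123) and 1.86 at day 14 (limma, adjusted p = 0.000208). The basal and luminal values of both genes did not overlap at day 0.

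AKR1B8 passed the test at day 0, with 43.7, 32.6 and 52 in basal and 9.4, 2.19 and 10.8 in luminal samples (2.56 ± 0.57, limma, adjusted p = 0.0012), but was at -0.53 and -0.12 on day 7 and day 14, so that its call rests on samples that served to choose it. NQO1 passed at day 7, with 882, 565 and 815 against 236, 259 and 459 (1.28 ± 0.37, limma, adjusted p = 0.0142). So 3, 3 and 2 of the 8 genes were called at day 0, day 7 and day 14, where 20.5%, 14.7% and 19.3% of all genes were called. With the rat as a block, since basal and luminal cells came from the same rats, 14 in place of 8 calls were made. TXNRD1 was then called on all 3 days (0.79 ± 0.18 on day 0, 0.73 ± 0.18 on day 7 and 0.60 ± 0.18 on day 14), GCLC on day 0 (0.87 ± 0.23), GCLM on day 14 (0.58 ± 0.20) and SRXN1, lower in basal cells, on day 14 (-0.81 ± 0.24). The NQO1 call ended without basal replicate 1 or luminal replicates 1 or 2 of day 7 (1.16, 1.10 and 1.17), and with only the groups compared the calls of NQO1 and of HMOX1 at day 7 ended (adjusted p = 0.123 and 0.169 by limma), while GCLC and TXNRD1 were called at day 0 (adjusted p = 0.000818 and 0.00154 by limma). The descriptions of basal and luminal samples of rat LD2LR, 1 of the 3 vehicle rats of day 7, call it treated, while its titles and treatment labels call it a control, and it was taken as a vehicle rat. Without this rat, an alternative chosen after the data were seen, the day 7 differences were 3.72 for SLC7A11, 1.79 for HMOX1 and 1.51 for NQO1, and 8 calls were made over the 3 days as with it.

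**Figure D3:**
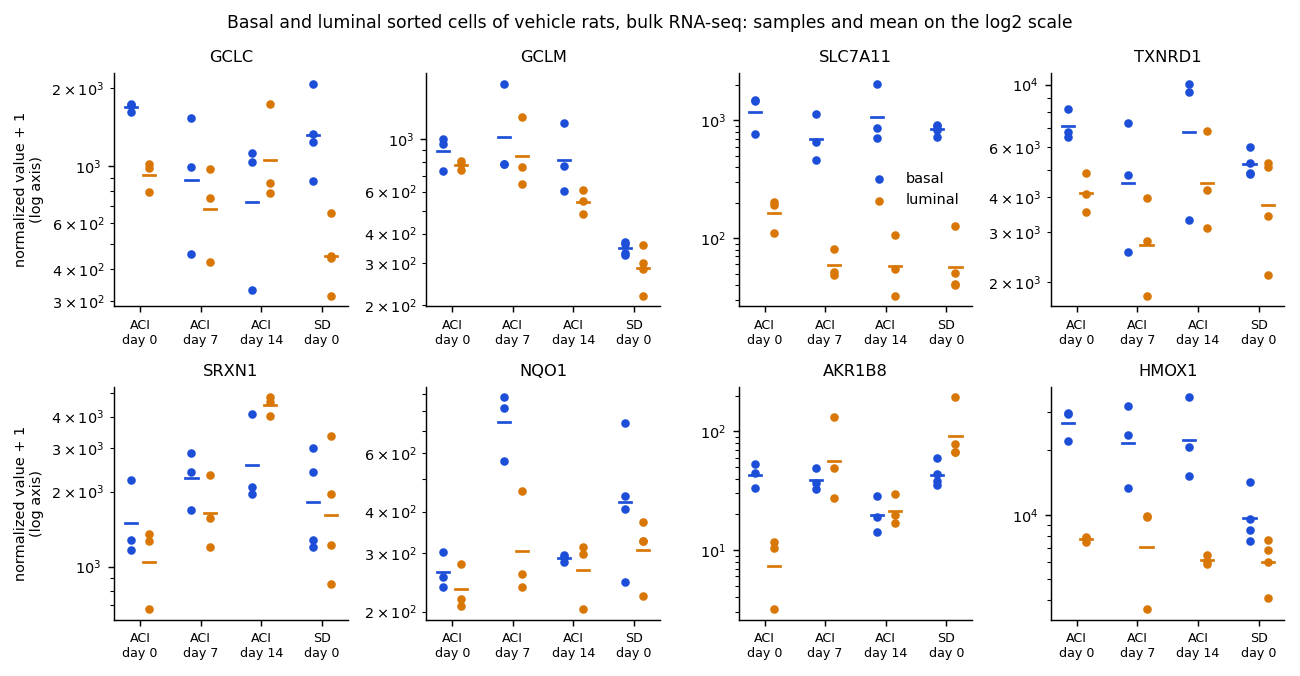
The 8 genes in basal and luminal bulk samples of vehicle rats, ACI at day 0, day 7 and day 14 and SD at day 0. Points are samples (3 per ACI group, 4 per SD group) as normalized values on a log axis, and lines are group means on the log2 scale. The group means of SLC7A11 and HMOX1 lie higher in basal samples in all 4 sets of rats.

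In SD rats 3 of 8 genes were called, where 50.1% of all genes were, a share above that of the set. All of these are day 0 samples that served to choose the genes, so the calls are not independent of that choice. SLC7A11 was at 899, 915, 832 and 717 in basal and 127, 39.3, 40.2 and 49.8 in luminal samples (3.87 ± 0.42, limma, adjusted p = 1.03e-06). GCLC was at 1320, 2071, 1237 and 874 against 655, 438, 314 and 446 (1.55 ± 0.28, limma, adjusted p = 0.000225), without overlap. HMOX1, at 9543, 14247, 7509 and 8460 against 7640, 6827, 6054 and 4104, passed narrowly (0.68 ± 0.27, limma, adjusted p = 0.0448). Its call ended without any of 5 libraries, basal replicates 1, 2 and 4 (0.69, 0.50 and 0.75) and luminal replicates 3 and 4 (0.69 and 0.50), and with only the groups compared (limma, adjusted p = 0.0598). With the rat as a block the same number of calls, 3, was made.

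The sorted single cells of vehicle rats were put to the same test, on UMIs of cells that passed the keratin filter. They are day 0 samples that entered the choice of the genes, so calls of the set here are not independent of that choice. SLC7A11 was at 100.9, 94.5 and 60.3 CPM in the ACI basal sort and 4.97, 3.58 and 1.55 CPM in the luminal sort (4.63 ± 0.40, edgeR, adjusted p = 1.06e-07), and at 184, 144 and 131 CPM against 7.66, 6.77 and 3.97 CPM in SD rats (4.46 ± 0.64, edgeR, adjusted p = 1.87e-05). HMOX1 was higher in the basal sort by 2.41 ± 0.49 in ACI rats (edgeR, adjusted p = 0.000635) and by 2.61 ± 0.93 in SD rats (edgeR, adjusted p = 0.0359). TXNRD1 was higher in the ACI basal sort, 231, 246 and 231 CPM against 113, 114 and 93.8 CPM (1.13 ± 0.20, edgeR, adjusted p = 0.000212). Calls at an adjusted p of 0.1 or less were 5 of 7 genes in ACI rats, where 65.5% of all genes were called, and 2 of 7 in SD rats, where 41.6% were. The ACI count was near the share of all genes and the SD count below it, so neither is a result about the set.

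NQO1 was lower in the basal than in the luminal sort of ACI rats and did not pass in SD rats. In ACI rats it was at 3.17, 4.29 and 1.71 CPM in the ACI basal sort and 13.2, 19.5 and 11 CPM in the luminal sort (-2.22 ± 0.33, edgeR, adjusted p = 3.13e-05), whereas its bulk difference at day 0 did not pass and that at day 7 was positive. In SD rats it was at 5.57, 8.29 and 3.11 CPM in the basal and 4.68, 1.95 and 4.17 CPM in the luminal sort, which overlapped (0.44 ± 0.66, edgeR, adjusted p = 0.653). AKR1B8 was called in ACI rats at these low levels (1.90 ± 0.82, edgeR, adjusted p = 0.0594), a call that ended with the rat as a block (edgeR, adjusted p = 0.128), with DESeq2 (adjusted p = 0.162), without the 5% of cells with the most UMIs (1.59, edgeR, adjusted p = 0.13) and without the basal libraries of ACI7 (1.75) or ACI9 (1.82) or the luminal library of ACI9 (1.39). The block also added GCLC in ACI rats (0.29 ± 0.12) and TXNRD1 in SD rats (0.50 ± 0.23). HMOX1 in SD rats was no longer called without the luminal library of SD2 (2.46) or SD3 (2.40).

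NFE2L2 itself was higher in basal cells in every one of these comparisons, by 1.40 ± 0.20, 1.31 ± 0.20 and 1.94 ± 0.20 in ACI bulk samples on day 0, day 7 and day 14, by 1.88 ± 0.28 in SD bulk samples, and by 1.49 ± 0.11 and 1.20 ± 0.28 in ACI and SD single cells. All 6 differences passed their test. KEAP1 was lower in SD basal cells (-0.88 ± 0.23 in bulk, limma, adjusted p = 0.00377, and -0.61 ± 0.27 in single cells, edgeR, adjusted p = 0.0952). BACH1 was higher in SD bulk basal cells (1.12 ± 0.35) and in the ACI basal sort (0.81 ± 0.13).

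Of the wider list of 46 NRF2 targets and regulators, 10 were higher and 6 lower in ACI basal cells at day 0, 9 and 7 on day 7, 11 and 6 on day 14, and 14 and 18 in SD rats, where 20.5%, 14.7%, 19.3% and 50.1% of all genes were called in either direction. The glutathione transferase GSTA4 was lower in basal cells at day 0 (-5.08 ± 0.84), day 7 (-3.40) and in SD rats (-2.93), and it was lower in single cells (-5.41 in ACI and -4.15 in SD rats). The aldehyde dehydrogenase ALDH3A1 was higher in basal cells, by 4.03, 3.00 and 4.98 in ACI bulk samples, 2.67 in SD bulk samples, and 2.9 and 4.05 in ACI and SD single cells. ATF4 response genes were called higher in 7, 7 and 8 of 12 cases in ACI rats and in 3 in SD rats, and lower in 2, 0, 1 and 4, against the same shares of all genes. The sums of fibroblast markers also moved with the lineage, at 3498 to 8938 CPM in basal and 698 to 1445 CPM in luminal ACI samples at day 0 and at 34507 to 53553 CPM against 252 to 1458 CPM in SD samples. In single cells a cluster led by COL1A1, COL3A1 and DCN held 855 cells of the SD sorts, 98.95% of them from the basal sort, and 1 led by the same genes held 47 cells of the ACI sorts, 93.62% from the basal sort. The part of fibroblast RNA in the differences was not tested.

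At later days the treated and vehicle ACI rats did not differ in these genes by the test. None of the 8 genes was called in any fraction at day 7 or day 14 (limma, 0 of 48 comparisons, 6 at an unadjusted p under 0.05, 0 by edgeR and 0 by DESeq2), where at most 0.00639% of all genes were called. In CD45+ cells all 8 genes lay below 0 at day 7 (median -1.11) and above 0 at day 14 (median 1.12). HMOX1 at day 14 was at 33906, 43971 and 49429 in vehicle and 55163, 104123 and 179760 in treated CD45+ samples, which did not overlap. How many of all genes did the same was not counted. At day 7 a vehicle CD45+ sample at 173918 stood above the other 2, at 81425 and 54658. It came from rat LD2LR, and without this rat the differences of the 8 genes at day 7 ran from -0.76 to -0.05 (median -0.47), with 0 calls in any fraction. The CD45+ sample of treated rat LD9R names day 9 in its title and day 7 in its other labels, and day 7 was used.

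The later vehicle samples were also set beside those of day 0. Since the day 0 vehicle samples entered the differences that chose the genes, these values are a description with no test. The largest log2 differences of the set were those of AKR1B8 in luminal cells at day 7 and of SRXN1, the reductase of peroxiredoxins, in luminal cells at day 14. The day 0 rats held 9.4, 2.19 and 10.8 units of AKR1B8 and the day 7 rats 47.7, 26.4 and 132 (2.94 ± 0.68, and 2.32 without rat LD2LR, the highest of the 3). At day 14 it was at 15.8, 28.9 and 18.7. For SRXN1 the day 0 rats held 1350, 1260 and 674 units and the day 14 rats 4032, 4790 and 4589 (2.09 ± 0.44). The medians of the 8 genes at day 7 and day 14 were -0.23 and -0.13 in basal, -0.01 and 0.15 in luminal and 0.51 and -0.32 in CD45+ cells. Over all genes 0.192% and 0.0384% were called on the later days in basal, 0.685% and 0.389% in luminal and 0% and 0.129% in CD45+ cells. Of the 46 genes of the wider list 2 passed in basal cells at day 7: GGT1, a glutathione-degrading enzyme, was higher (3.00 ± 0.50, limma, adjusted p = 0.0200) and EPHX1, an epoxide hydrolase, lower (-1.85 ± 0.32, limma, adjusted p = 0.0263).

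Adult ACI rats were compared on day 0 to ask whether treatment acts on these genes after puberty. SLC7A11 was higher in basal cells of treated virgin rats, at 345, 358, 192 and 110 in vehicle and 1102, 488, 2695 and 776 in treated samples, without overlap (2.18 ± 0.63, limma, adjusted p = 0.0410). It was the only call among the 8 genes in basal cells of virgin rats, where 8.73% of all genes were called. As 1 call among 8 genes is near that share, it is no result about the set. In parous rats its samples overlapped, at 135, 207, 314 and 412 against 535, 1053, 125 and 195 (0.48 ± 0.63, limma, adjusted p = 0.997, 0.00744% of all genes called). The difference between the parous and the virgin effect, -1.70 ± 0.89, did not pass (limma, adjusted p = 0.342), where 1.04% of all genes did. The SLC7A11 call ended with only the groups compared (limma, adjusted p = 0.0803) and without vehicle replicate 2 (2.41), 3 (2.11) or 4 (1.84) or treated replicate 1 (2.15) or 3 (1.72).

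No other gene of the set was called in adult rats by limma, edgeR or DESeq2, in luminal cells (0% in virgin and 0.0281% of all genes in parous rats) or CD45+ cells (0.022% and 0%), and 4 of 48 comparisons had an unadjusted p under 0.05. Parity in vehicle rats gave none either (limma, 0 of 24, 0 at an unadjusted p under 0.05, 0 by edgeR and DESeq2, 0% of all genes in each fraction). From the wider list, CBR3 and PRDX6, a carbonyl reductase and a peroxiredoxin, were lower in basal cells of treated virgin rats (-1.47 ± 0.42 and -0.98 ± 0.28).

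Normal glands of the NMU experiment, taken on day 87, held lower values in tumor-bearing TGFBRi-treated rats than in tumor-bearing vehicle rats. In basal cells GCLC was at 2415, 2580 and 1422 in vehicle and 773, 484 and 607 in treated samples (-1.76 ± 0.32, limma, adjusted p = 0.0274), and TXNRD1 at 11129, 14050 and 15224 against 7953, 5046 and 3303 (-1.39 ± 0.28, limma, adjusted p = 0.0409). These were 2 of 8 genes (limma, 7 at an unadjusted p under 0.05, 1 by edgeR and 7 by DESeq2), where 1.31% of all genes were called. HMOX1, at 93378, 123930 and 87468 against 73333, 31250 and 20213, did not pass (-1.48 ± 0.36, limma, adjusted p = 0.0588), nor did NQO1, at 2907, 3758 and 1790 against 802, 1650 and 183 (-2.11 ± 0.65), although DESeq2 called both (adjusted p = 0.0169 and 0.0328). GCLM (816, 988 and 848 against 425, 462 and 419), SRXN1 (5388, 6677 and 6308 against 3554, 3929 and 1985) and AKR1B8 (1143, 1666 and 405 against 353, 62.9 and 186) were also apart without overlap, and SLC7A11 was at -0.25 ± 0.53. The share of all genes apart without overlap was not counted in these samples.

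The same direction was seen in the other fractions without a call. All fractions came from the same rats, so they are not separate observations. All 8 genes lay below 0 in basal, luminal and CD45+ cells, with medians of -1.44, -1.61 and -1.0, against -0.25, -0.26 and 0.09 over all genes. In luminal cells NQO1 was at 917, 2004 and 1371 in vehicle and 541, 155 and 660 in treated samples and AKR1B8 at 1717, 4427 and 1621 against 670, 18 and 229. None passed there (limma, 0 of 8, 5 at an unadjusted p under 0.05, 0 by edgeR and 5 by DESeq2, 0.212% of all genes called). In CD45+ cells NQO1 was at 5859, 5747 and 4954 against 1749, 1804 and 2150 (-1.54 ± 0.39, limma, adjusted p = 0.287) and SRXN1 at 9785, 10427 and 14246 against 4651, 5126 and 5259, and none passed (limma, 0 of 8, 4 at an unadjusted p under 0.05, 0 by edgeR and 2 by DESeq2, 0.015% of all genes called).

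Tumor-free TGFBRi-treated rats, compared with the same vehicle samples, gave no call (limma, 0 of 24, 0 at an unadjusted p under 0.05, 0 by edgeR and DESeq2), where 0%, 0.948% and 0% of all genes were called in basal, luminal and CD45+ cells. Their basal HMOX1 values of 104308, 104181 and 89354 lay within the range of the vehicle rats. In basal cells of tumor-bearing treated rats, where 1.31% of all genes were called, 4 of 45 genes of the wider list that were tested were higher and 0 lower, GSTA1 (1.91 ± 0.39), ESD (1.67), MGST1 (1.56) and GSTM2 (1.04), which conjugate or hydrolyse electrophiles and glutathione adducts.

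The basal calls were fragile. The GCLC call ended without vehicle replicate 1 (-1.65), 2 (-1.60) or 3 (-2.03) or treated replicate 2 (-1.59) or 3 (-1.76), and the TXNRD1 call without the same libraries (-1.52, -1.35, -1.29, -1.38 and -1.08) and with edgeR (adjusted p = 0.0509). Without treated replicate 1, which had the highest HMOX1, 4 genes more were called in basal cells: HMOX1 (-2.0), SRXN1 (-1.13), AKR1B8 (-3.07) and GCLM (-1.0), and without treated replicate 2 NQO1 was (-2.81). In luminal cells GCLM (-1.67) and NQO1 (-1.83) were called without vehicle replicate 3. Basal markers in the CD45+ samples summed to 593 to 952 CPM in vehicle and 1642 to 20675 CPM in tumor-bearing treated rats, and macrophage markers to 7010 to 9107 and 3557 to 17715 CPM. Their part in the CD45+ values was not tested.

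**Figure D4:**
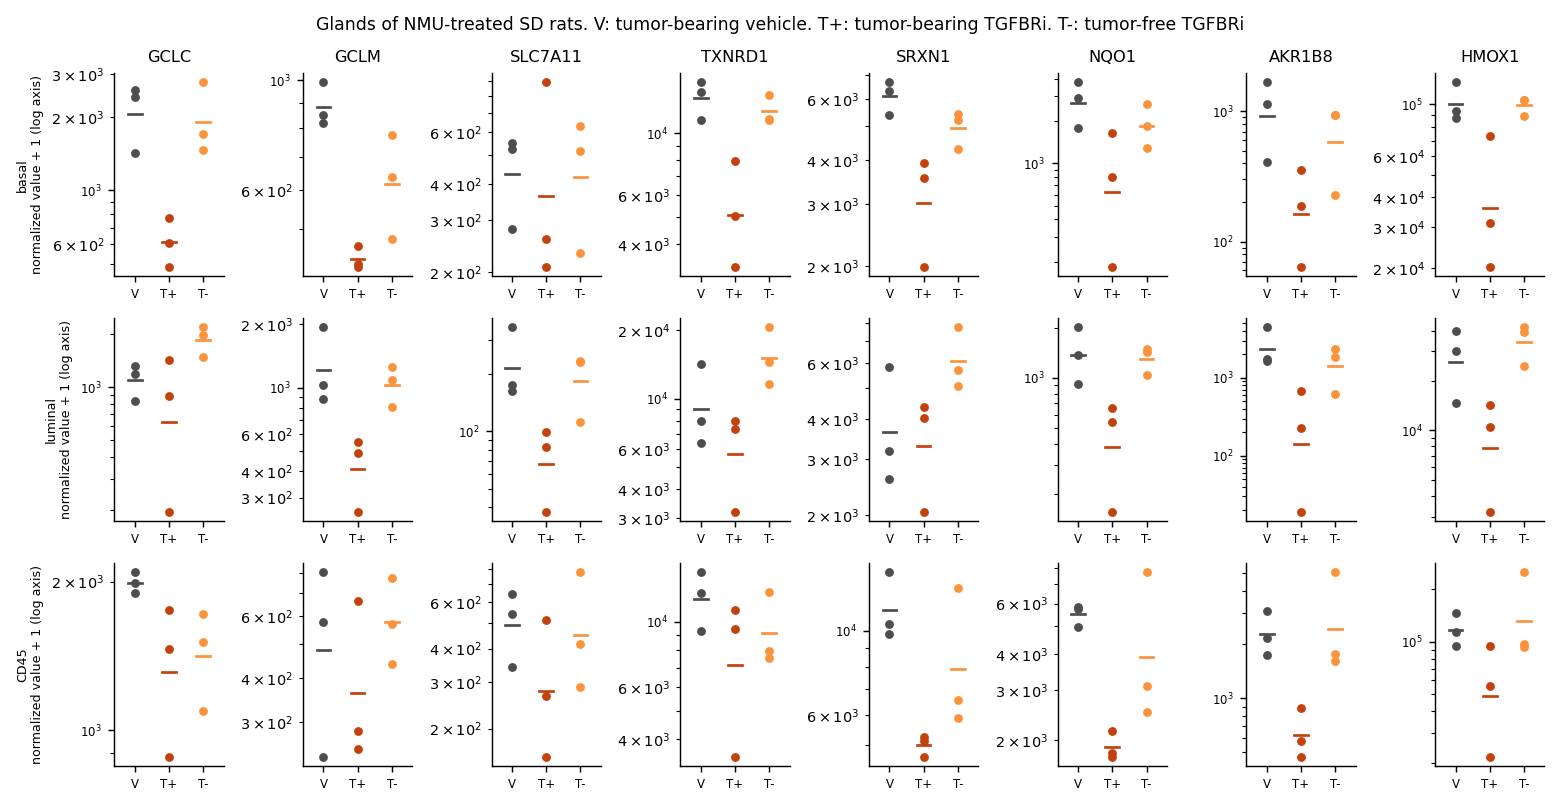
The 8 genes in basal, luminal and CD45+ cells of glands of NMU-treated SD rats. Points are samples as normalized values on a log axis of its own in each panel, for 3 tumor-bearing vehicle rats (V), 3 tumor-bearing TGFBRi-treated rats (T+) and 3 tumor-free TGFBRi-treated rats (T−). In basal cells GCLC and TXNRD1 of the tumor-bearing treated rats lie below all vehicle samples, and the tumor-free treated samples overlap the vehicle samples.

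CD45+ cells of tumors of vehicle rats held less of 6 of these genes than CD45+ cells of glands of the same rats, and in EPCAM+ tumor cells the result depended on the scaling. In CD45+ cells HMOX1 was at 8043, 9637 and 6833 CPM, here of recovered reads, in glands and 388, 46.5 and 219 in tumors (-5.15 ± 1.31, edgeR, adjusted p = 0.0254). SRXN1 was at 691, 686 and 1032 against 26.2, 15.8 and 48.1 (-4.76 ± 1.01, edgeR, adjusted p = 0.0108), NQO1 at 414, 378 and 359 against 11.4, 5.1 and 32.2 (-4.61 ± 1.36, edgeR, adjusted p = 0.0484), and AKR1B8 at 154, 202 and 127 against 6.29, 2.43 and 8.05 (-4.85 ± 1.39, edgeR, adjusted p = 0.0416). GCLC (140, 137 and 137 against 20.9, 51 and 19.5) and GCLM (16.8, 52.7 and 42 against 7.31, 13.5 and 6.18) were also called, so that 6 of 8 genes passed, where 8.2% of all genes were called. TXNRD1 was at 656, 822 and 1064 against 125, 178 and 190 (-2.40 ± 0.73, edgeR, adjusted p = 0.0534) and SLC7A11 was at -1.77 ± 1.49.

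In EPCAM+ tumor cells against luminal gland cells, 3 of 8 genes passed with TMM scaling, where 24.1% of all genes did. TMM moved the median of all genes by -0.91 in this comparison, to 0.19 from 1.10 on library totals, and the log2 values given next include that shift. HMOX1 was at 526, 1244 and 1636 CPM in glands and 100.9, 171 and 667 in tumors (-2.97 ± 1.04, edgeR, adjusted p = 0.0450), which overlapped in 1 sample of each. SLC7A11 was at 12.5, 5.06 and 9.33 against 3.27, 0.475 and 2.66 (-2.90 ± 0.85, edgeR, adjusted p = 0.0191). GCLM, at 31.8, 60.5 and 55.8 against 18.6, 26.9 and 44.8, was at -1.72 ± 0.44 (edgeR, adjusted p = 0.0088), overlapping in CPM. On library totals, an alternative chosen after the data were seen, none of the 3 passed (0 of 8 genes, 34.7% of all genes called), with -1.86 for HMOX1, -2.06 for SLC7A11 and -0.72 for GCLM (edgeR, adjusted p = 0.15, 0.0765 and 0.258). GCLC was higher in the tumor of every rat in CPM, 56.6, 32.8 and 72 against 47.2, 26.1 and 64.1 in the gland, which was 0.23 on library totals but -0.64 with TMM, and SRXN1 (0.19 and -0.52) and NQO1 (0.35 and -0.50) also changed sign between the scalings, none of them called. AKR1B8 (-1.21 and -2.25) and TXNRD1 (-0.40 and -1.17) did not pass either. In CD45+ cells TMM moved the median of all genes by -0.03, and 6 genes passed on library totals as well. NFE2L2, KEAP1 and BACH1 were not called in either comparison.

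With the rat as a block 8 in place of 9 calls were made: AKR1B8, GCLM and NQO1 in CD45+ cells were lost (edgeR, adjusted p = 0.0539, 0.118 and 0.0697) and TXNRD1 in CD45+ cells (edgeR, adjusted p = 0.0435) and AKR1B8 in EPCAM+ cells (edgeR, adjusted p = 0.0371) were gained. Without single libraries 4 to 8 calls were left. AKR1B8 and NQO1 in CD45+ cells were lost without any of the 6 libraries (-5.17 to -4.46 and -5.43 to -4.17), GCLM without any but the gland library of replicate 1 (-2.40 to -1.57), HMOX1 without tumor libraries 2 or 3 or gland libraries 1 or 2 (-5.18 to -4.65), and SRXN1 without tumor library 2 (-4.42). In EPCAM+ cells HMOX1 was lost without tumor libraries 1 or 2 or gland libraries 2 or 3 (-2.97 to -2.62) and SLC7A11 without tumor libraries 2 or 3 or gland library 1 (-2.84 to -2.45). GCLC in CD45+ cells and GCLM in EPCAM+ cells were called without any single library.

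Cell makeup moved with these differences. Fibroblast markers in CD45+ samples summed to 13745 to 29062 CPM in glands and 760 to 1844 CPM in tumors, macrophage markers to 7010 to 9107 and 2732 to 18161 CPM, and T cell markers to 759 to 914 and 981 to 3619 CPM. In EPCAM+ tumor samples fibroblast markers were at 9791 to 78704 CPM, against 284 to 500.0 CPM in luminal gland samples. Their part in the values was not tested. Of the wider list, 0 genes were higher and 7 of 43 (16.3%) lower in CD45+ tumor samples, where 8.2% of all genes were called (median -1.2, against 0.01 over all genes), led by ME1 (-6.91), GSTM2 (-6.19), UGDH (-4.76) and GSTA1 (-4.42). In EPCAM+ cells 6 were higher and 6 lower of 44 with TMM (27.3%), near the 24.1% of all genes, and 16 were higher and 4 lower on library totals (45.5%, against 34.7% of all genes), so the balance of directions depended on the scaling. TXN1 (-3.97 with TMM and -3.0 on library totals), FTH1 (-3.75 and -2.75) and PRDX1 (-2.86 and -1.91), which carry the thioredoxin, iron storage and peroxiredoxin functions, were lower under both scalings, and IDH1, a source of NADPH, was higher under both (3.09 and 3.97).

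TGFBRi-treated and vehicle tumors did not differ by the test (limma, 0 of 16, 0 at an unadjusted p under 0.05, 0 by edgeR and DESeq2, 0% of all genes in both fractions). HMOX1 in EPCAM+ cells was at 1917, 2845 and 8143 in vehicle and 27925, 1385 and 575 in treated tumors, and in CD45+ cells at 5329, 476 and 2180 against 14306, 480 and 244. The high treated value came from the same rat in both fractions.

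In the E2 experiment, E2 and tumors came together, since vehicle rats with E2 bore tumors and those without E2 did not, so E2 and tumor bearing cannot be told apart. HMOX1 was lower with E2 in both fractions without passing the test. In luminal cells it was at 67292, 77392, 33266 and 16279 without and 10811, 12401, 20911 and 8220 with E2 (-1.73 ± 0.47, limma, adjusted p = 0.0718). In CD45+ cells it was at 12302, 9367, 10394 and 4292 against 2164, 2871, 1215 and 889 (-2.39 ± 0.58, limma, adjusted p = 0.0943), with no overlap. How many of all genes had no overlap was not counted. None of the genes was called (limma, 0 of 16, 8 at an unadjusted p under 0.05, 0 by edgeR and 4 by DESeq2), where 1.48% of all genes were called in luminal and 0.282% in CD45+ cells.

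Without replicate 4 of the rats without E2, the lowest for HMOX1 in both fractions, HMOX1 was called in luminal (-2.18) and CD45+ cells (-2.72), GCLM in luminal cells (-1.52) and AKR1B8 in CD45+ cells (-2.89). From the wider list, GSTA1 was higher (2.78 ± 0.60), ME1, a source of NADPH, was higher (1.61) and PRDX6 was lower (-1.09) with E2 in luminal cells. TGFBRi-treated rats of this experiment, with or without E2, gave no call (limma, 0 of 48, 5 at an unadjusted p under 0.05, 0 by edgeR and 1 by DESeq2), where 0.0147%, 0.0147% and 0.00736% of all genes were called in luminal cells of rats without E2, of tumor-free rats given E2 and of rats given E2 that bore tumors, and 0%, 0% and 0.0223% in CD45+ cells. That gene was SLC7A11 in luminal cells of tumor-bearing rats with E2, with 91, 81, 9 and 86 reads in vehicle and 0 and 2 reads in treated samples (limma, adjusted p = 0.245).

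Finally the genes were compared with each other within groups, after the mean of each group had been taken off, over 196 bulk samples in 59 groups. This is a description, since samples of a fraction share libraries, batches and normalization. The correlation r of a gene with the mean of the other members was 0.85 for HMOX1, 0.77 for TXNRD1 and SRXN1, 0.74 for NQO1, 0.65 for GCLC, 0.64 for AKR1B8, 0.63 for SLC7A11 and 0.44 for GCLM. NFE2L2 was at 0.49, BACH1 at 0.37 and KEAP1 at -0.18. The median r between pairs of the 8 genes was 0.67 in CD45+ cells, 0.40 in basal cells and 0.26 in luminal cells.

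Of 6228 genes with a mean of at least 50 normalized units, the 10 most like the mean of the 8 genes were the chemokine CXCL3 (r = 0.79), the kinase RIOK3 (0.78), UAP1 (0.76), the arsenite-responsive ZFAND2A (0.76), the Hippo pathway scaffold SAV1 (0.75), the phosphocholine enzyme PCYT1A (0.74), the small GTPase RAB7B (0.74), the AP-1 subunit FOSL1 (0.72), PRRG4 (0.72) and the phospholipase PLCD1 (0.71). The 99th percentile over all these genes was 0.60, which every member but GCLM exceeded.

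**Figure D5:**
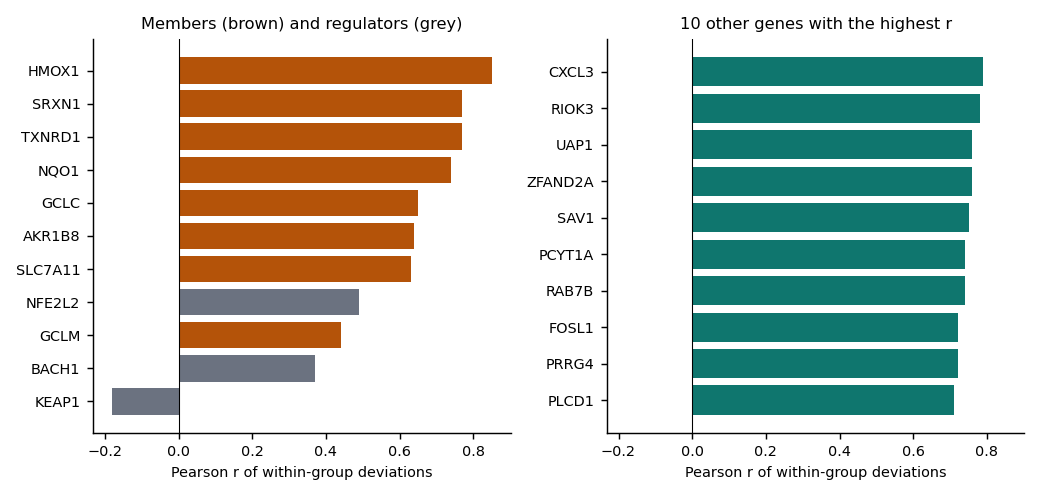
Correlation of the residuals of each gene with the mean of the members (of the other members, for a member) over 196 bulk samples in 59 groups. Bars are Pearson's r, brown for the 8 genes and grey for their regulators, with the 10 genes of most like pattern beside them. HMOX1 is highest at 0.85 and KEAP1 is below 0 at -0.18.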

How the data were processed

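Bulk RNA-seq covered 202 samples of 68 rats and single-cell RNA-seq 39 libraries of 24 rats, grouped by the labels. In bulk, the authors aligned reads to rn6 with STAR 2.5.1b, counted them on RefSeq genes without strand (HTSeq) and normalized the counts with size factors of DESeq2, so the deposited values are a normalized signal, not raw counts. Every one of 2526550 values above 0 was a whole number of reads at a tolerance of 0.001, and these reads were recovered. Reads on no gene, 23.1 to 42.5% in the 85 samples that list them, were left out. The single-cell tables hold UMI counts that the authors made with Cell Ranger 4.0.0 (sorted cells) or 7.0.0 (whole glands) and filtered on genes and mitochondrial reads, and on keratin and Ptprc in sorted cells. Glands were digested with collagenase and used fresh or frozen, and which libraries were frozen is not given in the sources used here.

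Bulk groups were compared with limma 3.58.1 on log2(value + 1) (trended and robust, genes whose values summed to 10 or more, all groups of a fraction or, for basal against luminal, of both fractions in 1 model), with calls at 0.05 or less after Benjamini-Hochberg adjustment. The day 0 contrasts of TGFBRi in young rats were not tested. A test of later days against day 0 in vehicle rats had been planned, and for the 8 genes its values are given as a description, since the day 0 vehicle samples entered their choice. Only values of 1 common scaling were set against each other, and tumors against glands were tested with edgeR 4.0.16 (quasi-likelihood, TMM) on recovered reads. A raw count test had been planned for bulk samples, and limma replaced it as the values are normalized. Single cells were clustered per experiment with leidenalg 0.10.2 (2000 variable genes without the NRF2 genes, 30 components, 20 neighbours, resolution 0.8), and UMIs were summed per rat and class with at least 10 cells. Sorts were compared with edgeR at an adjusted p of 0.1 or less. Doublets were not removed, and leaving out the 5% of cells with the most UMIs was an alternative. The SE of a day 0 difference in single cells comes from the spread between rats in each group. In the E2 experiment 4 samples of the same rat and fraction were averaged as 1. Same-rat basal and luminal samples, and tumor and gland samples, pair by the labels. DESeq2 1.42.0, R 4.3.3 and Python 3.11.15 were also used, and scripts were tested on simulated data. In 4 simulated comparisons (ACI day 0 basal against luminal cells, TGFBRi in virgin adult basal cells, CD45+ tumors against glands, ACI sorts) 0 to 2.99% of genes changed 1.5-fold were called, 10.4 to 26.9% of those changed 2-fold and 84.8 to 100% of those changed 4-fold. The simulation gave every gene the same dispersion, changed only well expressed genes and fitted only the groups compared. Its shares do not give the power for genes of lower level or of wider spread between rats. The criterion of the test was restricted to folds of 2 or more after it had failed at 1.5.

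Named genes were the 8 members, NFE2L2, KEAP1 and BACH1, up to 4 called genes of the wider list per tested comparison, and the 10 genes most like the members. Members, lists and tests were chosen with earlier results of these data known. Groups are rats in the labels. The p-values measure the spread between these rats.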

Additional observations from a re-analysis of the deposited data

Results flagged for a closer look

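A sample stood far from the rest of its group in 26 of 289 groups of 4 to 10 samples checked, or 9%. A rate of about 1 in 20 would apply to independent values of normal spread. These genes share samples and their spread was not checked, so the 9% is not a test against chance. In young SD bulk samples these were SLC7A11 in a vehicle CD45+ sample (753 normalized units, next 71), in a vehicle luminal sample (127, next 49.8) and in a treated luminal sample (89, next 34), GCLM in a treated luminal sample (489, next 282), and AKR1B8 in a vehicle luminal sample (193, next 76) and, at the low end, in a treated luminal sample (11, next 69).

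In adult ACI rats AKR1B8 was high in a vehicle basal sample of a virgin rat (471, next 37), in a vehicle luminal sample (325, next 35) and in a treated luminal sample (273, next 58). SRXN1 was high in a vehicle basal sample (10033, next 2278). In CD45+ cells of treated parous rats GCLM was high in a sample (634, next 508) and HMOX1 low in a sample (6657, next 25563). In tumor-free treated rats of the E2 experiment AKR1B8 in CD45+ cells (1245, next 192) and TXNRD1 in luminal cells (11776, next 8847) were high in a sample each.

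In sorted SD single cells, rat SD14 stood above the other treated rats for HMOX1 in the basal sort (4252 CPM, next 1094), the luminal sort (584, next 172), luminal progenitor-like cells (760.0, next 202) and mature luminal-like cells (394, next 163), and in the basal sort also for GCLM (51, next 36.2) and AKR1B8 (3.29, next 0.592). In whole glands a treated rat was high for HMOX1 in NK cell-like cells (49.6 CPM, next 25.5), GCLM and NQO1 in Schwann-like cells (28.2, next 20.6, and 462, next 323), GCLC in lymphatic endothelial-like cells (82.6, next 53) and macrophage-like cells (63.4, next 51.2), and SLC7A11 in mature luminal-like cells (5.05, next 2.28).

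Between preparations, every treated rat lay above every vehicle rat in the ACI basal sort and below every vehicle rat in basal-like cells of whole SD glands for HMOX1 (log2 difference 2.11 against -2.48) and TXNRD1 (0.75 against -1.50). In the SD basal and luminal sorts, of the strain of the whole glands, HMOX1 was at 0.94 and 0.88 and TXNRD1 at -0.40 and -0.63, with groups that overlapped, and with TMM scaling TXNRD1 was at -0.02 and -0.28. The set was chosen for opposite directions in sorted and whole-gland cells, so this contrast follows from the choice and is a description only. The difference between the preparations was not tested, and strain, sorting and kit cannot be told apart.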

How the results depend on the processing

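Leaving out a library in turn gave a median over whole-gland classes of -2.34 to -1.78 (-2.0 with all), over sorted single-cell classes of 0 to 0.15 (0.08) and over sorted bulk fractions at day 0 of 0.04 to 0.2 (0.13). Calls were 7 to 8 for ACI basal against luminal cells (8), 2 to 3 in SD rats (3), 6 to 8 in single-cell sorts (7), 0 to 1 in adult rats (1), 0 to 6 in NMU glands (2), 4 to 8 for tumors against glands (9), 0 to 2 for E2 (0), and 0 in the other comparisons tested. Calls in the vehicle time course are not given, since its day 0 samples entered the choice of the genes. With a pseudocount of 10 CPM the whole-gland median was -1.5, and with TMM it was -2.16. With the rat as a block, ACI basal against luminal cells gave 14 calls and tumors against glands 8, and the SD count stayed at 3. The animal label as a block took the adult count from 1 to 0, as did only the groups compared. Adult animal labels (correlations of -0.45 to 0.30) and whole-gland numbers (-0.04 to 0.38) did not pair the rats. With the whole-gland number as a block the median was -1.90. DESeq2 gave 14 calls in NMU glands, 4 for E2 and 1 for TGFBRi in the E2 experiment. With only the groups compared there was 1 call in NMU glands and 1 for E2, and NMU glands also gave 1 without a filter and 1 with edgeR. Leaving out the 5% of cells with the most UMIs ended 1 call, of AKR1B8 between the ACI sorts. On library totals in place of TMM, chosen after the data were seen, tumors against glands gave 6 calls, 0 of them in EPCAM+ cells. The cause of the other changes was not tested. Of the values of single genes under alternatives, those of the time course included, 49 passed and 74 no longer passed the test, and 413 of 7211 had another sign than the reported value, 0 of them called in either fit. With 3 rats per group, differences below the spread between rats were not detectable.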

Other observations

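Rat D2N, a tumor-bearing TGFBRi-treated rat of the NMU experiment, had the highest HMOX1 of the 3 such rats in basal gland cells (73333 normalized units, against 31250 and 20213), in EPCAM+ tumor cells (27925, against 1385 and 575) and in CD45+ tumor cells (14306, against 480 and 244). This was chosen after the values were seen and was not tested.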
